A study of Mus musculus with 4 samples.

Results

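The cells described here are 262 epithelial cells from the cochlea of mouse embryos at embryonic day (E) 14.5, chosen as cells of the medial wall of the cochlear duct, the region known as Kölliker's organ. They are the cells with at least 1000 detected genes and under 10% mitochondrial transcripts that held at least 1 unique molecular identifier (UMI, the tag that counts a captured transcript) of the epithelial gene Epcam, at least 2 of Tecta, and none of Fgf20, Bmp4, Otx2, Hmx2 or Hmx3. The genes required to be at 0 mark the prosensory domain (Fgf20), the lateral wall (Bmp4), the roof (Otx2) and the vestibular epithelium (Hmx2, Hmx3). The 262 members came from 5950 kept cells in the series, 4618 of them at E14.5 and 2630 of those with an Epcam UMI. The members were thus selected on measured UMI counts of 7 genes, so the levels of those genes are given as a description, and genes that vary with them between cell types are not independent of the choice.

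The series holds 4 single-cell RNA libraries, 2 at E12.5 and 2 at E14.5, from the dissected cochlear duct of mice with the genotype Sox2-GFP/WT. All 4 carry this reporter allele, in which green fluorescent protein follows the transcription factor gene Sox2, and all were sorted for GFP before 10x Genomics capture. No unsorted or reporter-free cells serve as a control. A UMI of the reporter transcript Egfp was found in 33 of 42 and 177 of 220 members, and in 162 of 794 and 459 of 1574 other cells with an Epcam UMI. The labels name no animals behind a library. The p-values here rest on how the difference between classes varied across 2 libraries, with a spread shared across genes. That variation may be technical.

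Kölliker's organ is the transient columnar epithelium on the medial side of the prosensory domain, the strip that gives rise to the organ of Corti. It secretes much of the tectorial membrane, a sheet of collagens and glycoproteins that lies over the hair cells, and before hearing begins its cells couple through gap junctions and release ATP. Alpha-tectorin (Tecta) and beta-tectorin (Tectb) are glycoproteins of that sheet, and epiphycan (Epyc) is a small leucine-rich proteoglycan.

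The promoter windows of Tecta, Tectb, Epyc and Mia are shown because the results turn on these genes of secreted proteins. Each window runs from 250 bases before to 50 after the gene's start in RefSeq (build GRCm38.p6), 5′ to 3′ on the gene's strand, and all 4 genes matched by symbol. Capitals mark matches to a SOX motif (ACAAAG, or CTTTGT on the opposite strand) or a GATA motif (AGATAA or TTATCT). Tecta is at chr9:42399898-42400197 on the minus strand, Tectb at chr19:55180476-55180775 on the plus strand, Epyc at chr10:97643818-97644117 on the plus strand and Mia at chr7:27181100-27181399 on the minus strand.
Tecta: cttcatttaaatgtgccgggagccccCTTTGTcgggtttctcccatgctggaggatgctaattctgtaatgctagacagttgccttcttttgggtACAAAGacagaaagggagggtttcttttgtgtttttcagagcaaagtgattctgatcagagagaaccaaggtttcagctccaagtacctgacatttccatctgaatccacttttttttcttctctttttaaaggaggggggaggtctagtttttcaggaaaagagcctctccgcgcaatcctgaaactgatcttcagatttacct
Tectb: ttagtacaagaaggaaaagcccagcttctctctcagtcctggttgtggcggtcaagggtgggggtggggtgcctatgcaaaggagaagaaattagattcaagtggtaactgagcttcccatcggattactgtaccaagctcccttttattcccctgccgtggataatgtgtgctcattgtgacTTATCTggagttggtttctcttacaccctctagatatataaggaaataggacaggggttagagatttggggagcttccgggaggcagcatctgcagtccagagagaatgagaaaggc
Epyc: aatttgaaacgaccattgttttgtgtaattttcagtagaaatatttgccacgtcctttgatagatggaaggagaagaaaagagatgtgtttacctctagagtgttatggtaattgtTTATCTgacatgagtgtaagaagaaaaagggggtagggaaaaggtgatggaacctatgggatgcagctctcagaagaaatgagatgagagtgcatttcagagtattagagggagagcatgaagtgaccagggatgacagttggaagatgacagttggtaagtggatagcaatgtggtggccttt
Mia: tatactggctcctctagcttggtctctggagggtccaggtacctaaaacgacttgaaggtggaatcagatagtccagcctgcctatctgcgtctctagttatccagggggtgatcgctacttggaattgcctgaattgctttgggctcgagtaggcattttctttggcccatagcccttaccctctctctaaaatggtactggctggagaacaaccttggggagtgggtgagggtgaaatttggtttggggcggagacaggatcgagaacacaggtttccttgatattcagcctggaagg
Tecta had SOX matches at -155 and -224 bases from its start, Tectb a GATA match at -67, Epyc a GATA match at -134, and Mia neither. A SOX match was present in 18.7% and a GATA match in 11.2% of 32851 promoter windows of this length. A match is a run of letters and not a measured binding site.

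The E14.5 libraries, called replicates 1 and 2, held 42 and 220 members. These were 2.68% of kept cells in replicate 1 (exact Clopper-Pearson 95% interval 1.94 to 3.60) and 7.22% in replicate 2 (6.32 to 8.19), or 5.02% and 12.3% of the cells with an Epcam UMI. The share was higher in replicate 2, by more than counting error. The rule found 6 and 6 cells in the E12.5 libraries, too few for a comparison of ages, which was not made. Members held 832448 UMIs in replicate 1 and 5087471 in replicate 2, so replicate 2 carries most of the counts. The median member had 14452 and 16187.5 UMIs, 4009.5 and 4276.5 genes and mitochondrial shares of 4.78% and 4.25%. Tecta ran from 2 to 62 UMIs per member in replicate 1 (median 6) and from 2 to 82 in replicate 2 (median 8).

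Of the genes that name these cells, only Epyc was not part of the rule. Epyc stood at 121 and 133 CPM (a normalised count, in which the UMIs of a gene are divided by all UMIs summed over a class and scaled to a common total) in members of replicates 1 and 2, and at 5.14 and 6.84 CPM in the other Epcam cells. It stood at 0 and 1.93 CPM in cells with both Fgf20 and Tecta, described below. A UMI of Epyc was present in 12 of 42 and 79 of 220 members, so most members had none. After each cell was thinned to 10000 UMIs, 27.3% (13.3 to 45.5) and 30.4% (24.2 to 37.2) of members kept one (exact 95% intervals), against 0.901% and 0% of E14.5 neurons, a class that should lack the gene. The neurons were deeper than the members, with medians of 19822.5 and 19868.5 UMIs, and thinning left out 9 and 16 members with fewer UMIs. Intervals cover counting error only. The label is thus borne by Epyc in a minority of the cells and by Tecta, which the rule required, in the rest.

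The first comparison set the members against all other Epcam cells of the same library, 794 in replicate 1 and 1574 in replicate 2. Of 14354 genes tested, 1564 (10.9%) were higher and 2659 (18.5%) lower in members (edgeR quasi-likelihood test on summed counts, Benjamini-Hochberg adjusted p under 0.05), and DESeq2 called 644 and 936. With libraries scaled to total UMIs in place of TMM the counts were 1224 higher and 3205 lower. Among the largest increases, Efhd1, a calcium-binding protein gene, stood at 107 and 132 against 4.48 and 8.35 CPM, members of replicates 1 and 2 first and the comparator of each replicate second, as in all such values below (log2 difference 4.29, SE 0.16, adjusted p = 6.6e-33). Mia, which encodes a secreted protein first known from melanoma and cartilage, stood at 1466 and 1472 against 85.2 and 245 CPM (log2 difference 3.40, SE 0.15). Epha7, an ephrin receptor gene, stood at 432 and 482 against 41.4 and 67.2 CPM (log2 difference 3.17, SE 0.12). For each of these genes both member values lay above both values of the other cells, and the groups did not overlap, in either direction, for 65.2% of all genes tested.

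The decreases of that comparison were led by genes of other tissues. Sult1e1, Olfm5 and Cbr2 had no UMI in members and were at least 137-fold, 114-fold and 120-fold lower than in the other Epcam cells (a floor of 3 counts over both libraries), calls that DESeq2 did not make. Of 10 olfactory epithelium genes, 9 were lower in members, and so were 5 of 5 pituitary genes. Many of the other Epcam cells carried a UMI of Pitx1, Lhx3, Gng13, Neurod6 or Tyrobp, used here as marks of cells from outside the ear: only 298 of 794 and 564 of 1574 had none. Among members, 38 of 42 and 197 of 220 had none. Most values below therefore come from narrower comparisons.

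In the first of these, members were set against the 298 and 564 other Epcam cells without such a UMI, called filtered Epcam cells. Of 12735 genes, 432 (3.39%) were higher and 826 (6.49%) lower in members (9.88% in all, while the groups did not overlap for 50.2% of genes), and DESeq2 called 187 and 246. These comparator cells still included some with keratins of stratified epithelium, such as Krt14 (121 and 17.1 CPM), and in replicate 2 with Ttr, a choroid plexus gene (1.38 and 4269 CPM), while members had no Krt14 UMI and stood at 0 and 2.56 CPM for Ttr. In the second, chosen after the data were seen, the 38 and 197 members without such a UMI were set against 51 and 128 Epcam cells that also had none and held at least 1 UMI of Fgf20 and 2 of Tecta. These are called Fgf20 cells with Tecta, and their Tecta stood at 412 and 394 CPM against 560 and 486 in all members. They are a part of the filtered Epcam cells, and most members are the same. The narrower comparisons are thus not independent of each other. Of 10385 genes, 839 (8.08%) were higher and 885 (8.52%) lower in members (16.6% in all, while the groups did not overlap for 50.5% of genes), and DESeq2 called 130 and 149. Against all 132 and 274 Fgf20 cells, 649 (5.3%) of 12245 genes were higher and 1124 (9.18%) lower (14.5% in all, while the groups did not overlap for 55.4%). In each of these comparisons edgeR called more than 2 times as many genes as DESeq2. For genes given below with a log2 difference, a call that DESeq2 did not make is stated. Counts over gene lists are edgeR's, and for most lists those of DESeq2 follow as higher and lower.

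**Figure D1:**
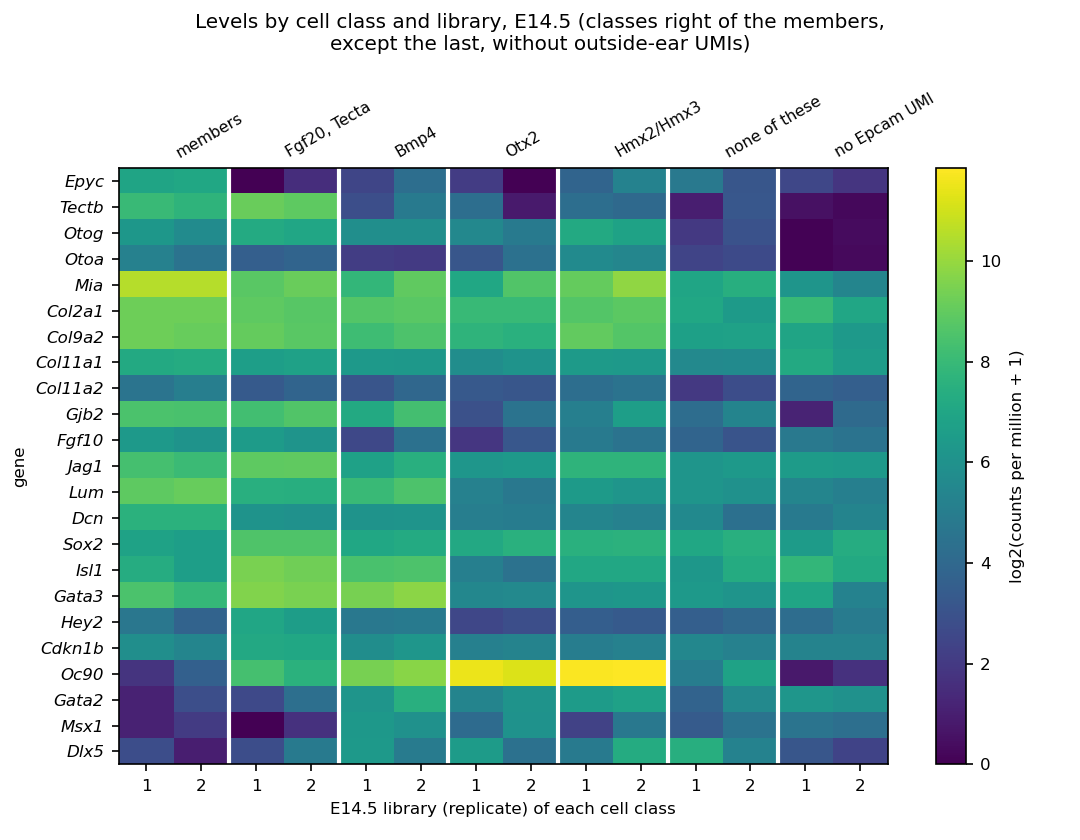
Levels of the genes on the vertical axis in classes of E14.5 cells, coloured by log2(CPM + 1), with replicates 1 and 2 of each class side by side; the last class holds all cells without an Epcam UMI. Members had the highest Epyc and Mia of these classes in both libraries, shared high Gjb2 and Col2a1 with Fgf20 cells with Tecta, and had low Oc90 (2.403 and 11.2 CPM).

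More matrix genes of the tectorial membrane were higher than lower in members in edgeR's test. Of 13 genes of the list tested against filtered Epcam cells, 7 were higher and 2 lower (median log2 difference 0.86, against -0.01 over all genes). In the comparison with Fgf20 cells with Tecta 7 of 12 were higher and 3 lower (median 0.46, against -0.01 over all genes). DESeq2 called 5 and 0, and 3 and 3. Tecta and Epyc were not tested, and Ceacam16, whose product joins the sheet later, and Vit had no UMI in members.

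Tectb stood at 261 and 204 CPM in members and 98.7 and 115 in filtered Epcam cells (log2 difference 1.15, SE 0.13, adjusted p = 3.6e-04). In Fgf20 cells with Tecta it stood at 570 and 473 CPM, above the 193 and 224 of members after the filter (log2 difference -1.26, SE 0.09, adjusted p = 3.7e-15). Summed as a class, members thus lay between the comparators without overlap on either side. Members with an Epyc UMI stood lower than those without, as given below. Otog, which encodes otogelin, another glycoprotein of the sheet, stood at 75.3 and 50.9 against 150 and 127 CPM in Fgf20 cells with Tecta (log2 difference -1.24, SE 0.12), and its values overlapped those of filtered Epcam cells. Otoa, which encodes otoancorin, the protein that attaches the sheet to the medial cells, stood at 36.3 and 20.9 against 11.02 and 13.2 CPM (log2 difference 0.95, SE 0.26, adjusted p = 0.0072). The call for Otoa was lost under DESeq2, without the library term and with a minimum of 4 Tecta UMIs, and under a limit of 5% mitochondrial UMIs the difference was 0.01. Against filtered Epcam cells Otoa did not pass (log2 difference 0.99, SE 0.36, adjusted p = 0.13), and it passed without the low-count filter, without the highest doublet scores and at equal depth.

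Collagen genes of the sheet did not move as one. Col2a1, the chain of type II collagen, stood at 602 and 609 against 303 and 391 CPM in filtered Epcam cells (log2 difference 0.86, SE 0.11) and at 629 and 629 against 480 and 438 CPM in Fgf20 cells with Tecta (log2 difference 0.45, SE 0.07, adjusted p = 3.3e-06). Member values were the higher in both comparisons, without overlap. Col11a1, a chain of the type XI collagen that joins type II fibrils, stood at 148 and 154 against 66.9 and 79.5 CPM in filtered Epcam cells (log2 difference 1.10, SE 0.12). Its partner chain gene Col11a2, chosen after its values were seen, stood at 22.8 and 32.2 against 7.32 and 14.4 CPM (log2 difference 1.36, SE 0.21), a call lost under DESeq2 and without the library term. Col11a1 and Col11a2 differed from Fgf20 cells with Tecta by 0.58 and 1.29, and both calls were lost under DESeq2 and at equal depth. Col9a1, a chain of type IX collagen, ran the other way there, at 173 and 197 against 301 and 329 CPM (log2 difference -0.77, SE 0.09), while Col9a3, another chain, was higher by 0.63.

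Mia separated the members from both comparators. In Fgf20 cells with Tecta it stood at 449 and 562 CPM, against 1615 and 1511 in members (log2 difference 1.59, SE 0.07, adjusted p = 5.6e-22). In filtered Epcam cells it stood at 231 and 575 CPM against 1466 and 1472 (log2 difference 2.05, SE 0.23, adjusted p = 2.8e-04), a call lost without the library term, and the libraries of the comparator differed from each other. At 10000 UMIs, Mia was present in 87.9% and 94.6% of members and in 21.2% and 15.6% of neurons (92.9% and 96.8% of members before thinning). Lum and Dcn, which encode the leucine-rich proteoglycans lumican and decorin, were also higher. Lum stood at 526 and 583 against 176 and 172 CPM in Fgf20 cells with Tecta (log2 difference 1.68, SE 0.08) and Dcn at 215 and 192 against 67.8 and 62.1 CPM (log2 difference 1.62, SE 0.11), and against filtered Epcam cells they were higher by 1.62 and 1.97. Both are on the mesenchyme list too, which with them included summed to 768 and 751 CPM in members and 404 and 302 in filtered Epcam cells. Of 11 genes of that list tested against filtered Epcam cells 2 were higher and 3 lower (median -1.17, DESeq2 2 and 2). Against Fgf20 cells with Tecta 2 of 3 were higher and none lower (DESeq2 2 and 0). Of the genes of the list other than Lum and Dcn, Tbx18 had no UMI in members. Col1a1 (22.8 and 0.393 CPM) and Prrx1 (14.4 and 0.983 CPM) were higher in members of replicate 1 than of replicate 2. The part of mesenchymal RNA in these results was not tested.

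**Figure D2:**
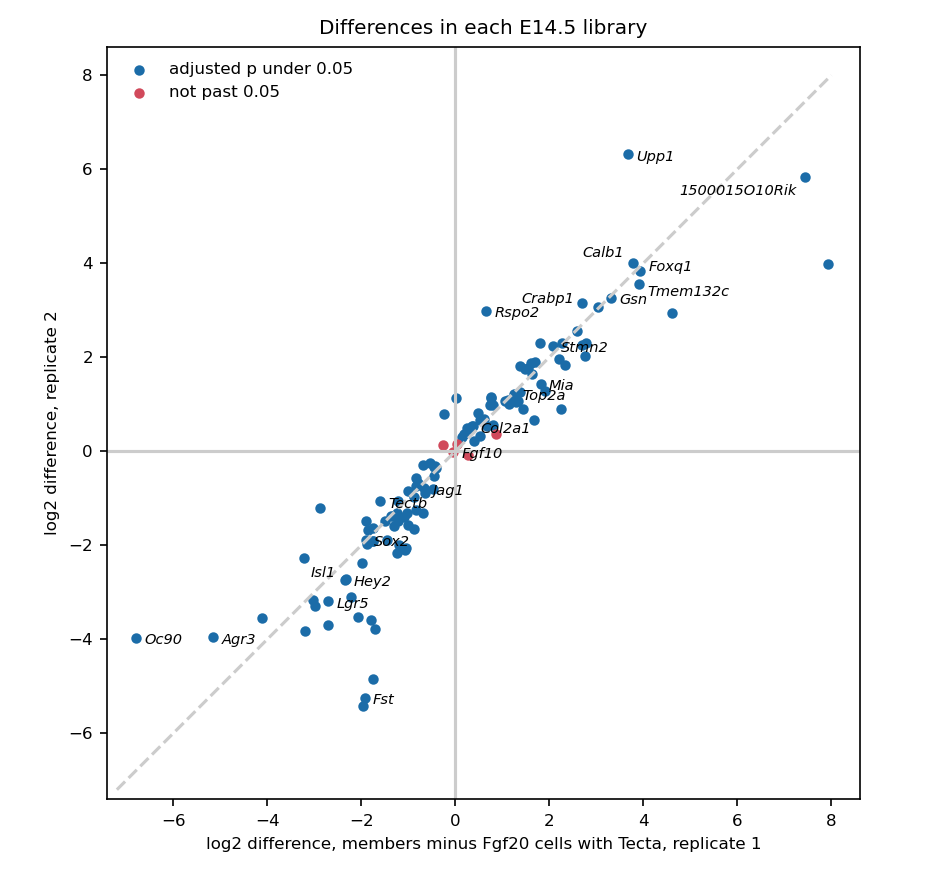
Log2 difference between members and Fgf20 cells with Tecta in replicate 1 (horizontal axis) and replicate 2 (vertical axis), each dot a gene of the text, blue where the adjusted p was under 0.05 and red where it was not; the dashed line marks equal differences. Most dots lie near the line, Upp1 and Calb1 on the higher side and Oc90, Agr3 and Fst on the lower.

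Genes for folding and trimming of secreted proteins differed by comparator. Of 33 genes, 5 were higher and none lower than in filtered Epcam cells, and of 30, 3 were higher and 6 lower than in Fgf20 cells with Tecta (DESeq2 5 and 0, and 1 and 1). The share higher in the second is near that over all genes tested. The 6 lower in edgeR's test were Calr, Sec61a1, Serpinh1, Plod2, Sparc and Furin, while DESeq2 called only 1 gene of the list lower. Pcolce2, which enhances the trimming of procollagen, was higher in both comparisons. It stood at 125 and 166 against 18.9 and 22.03 CPM in filtered Epcam cells (log2 difference 2.90, SE 0.14) and at 121 and 162 against 36.5 and 43.4 CPM in Fgf20 cells with Tecta (log2 difference 1.84, SE 0.13). Pdia4, a disulfide isomerase gene, differed by 0.90 and 0.40, and the second call was lost under DESeq2, at equal depth and under 5% mitochondrial UMIs. Hsp90b1, a chaperone gene, was higher than in filtered Epcam cells by 0.61, a call lost without the library term.

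Signals between the domains of the duct come next, ligands first. Fgf10, a fibroblast growth factor (FGF) gene of the medial duct, stood at 84.1 and 67.6 against 20.4 and 25.8 CPM in filtered Epcam cells (log2 difference 1.71, SE 0.18, adjusted p = 1.6e-04). The gene stood at 87.9 and 67.99 against 89.04 and 69.5 CPM in Fgf20 cells with Tecta (log2 difference -0.04, SE 0.13), values that overlap. Genes that FGF signalling is known to induce were lower than in Fgf20 cells with Tecta. The factor gene Etv5 stood at 23.7 and 18.9 against 93.3 and 99.1 CPM (log2 difference -2.31, SE 0.17) and Etv4 at 25.1 and 14.3 against 56.8 and 57.9 CPM (log2 difference -1.81, SE 0.20). Spry2, which encodes a feedback inhibitor, stood at 119 and 80.7 against 316 and 301 CPM (log2 difference -1.76, SE 0.10). Dusp6, a phosphatase gene of the same feedback, differed by -1.38. Of 14 FGF genes tested there 7 were lower and none higher (median -0.45), and of 18 tested against filtered Epcam cells 8 were lower and 1, Fgf10, higher (DESeq2 0 and 5, and 1 and 3). The rule required Fgf20 to be at 0 in members, while each Fgf20 cell with Tecta held at least 1 UMI of it. The levels of FGF targets and the counts of this list are therefore not independent of the choice.

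Notch genes were lower more often than higher. The ligand gene Jag1 stood at 324 and 272 against 161 and 206 CPM in filtered Epcam cells (log2 difference 0.74, SE 0.13) and at 308 and 284 against 481 and 494 CPM in Fgf20 cells with Tecta (log2 difference -0.75, SE 0.08). Members thus lay above the former and below the latter, without overlap. Lfng and Mfng encode glycosyltransferases that tune Notch receptors. Mfng stood at 1.395 and 2.501 against 12.7 and 24.1 CPM in Fgf20 cells with Tecta (log2 difference -3.25, SE 0.37). Lfng stood at 6.97 and 5.002 against 14.4 and 21.6 CPM (log2 difference -1.92, SE 0.32), a call lost under DESeq2. Among effectors of the pathway, Hey2 stood at 25.1 and 13.9 against 126 and 94.6 CPM (log2 difference -2.66, SE 0.18) and Hey1 at 149 and 118 against 260 and 282 CPM (log2 difference -1.13, SE 0.10). The effector gene Hes1 was higher in the fit (log2 difference 0.45, SE 0.13, adjusted p = 0.01), but stood at 126 and 155 against 145 and 89.8 CPM: it was lower in members of replicate 1 and higher in those of replicate 2, and the call was lost under DESeq2, without the library term and under 5% mitochondrial UMIs. Hes1 was the 1 higher gene of 15, of which 8 were lower. Of 19 tested against filtered Epcam cells 6 were lower and 1, Jag1, higher (DESeq2 0 and 4, and 1 and 3).

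The BMP and activin list held 8 lower genes and 1 higher of 17 against Fgf20 cells with Tecta, and 10 lower and none higher of 24 against filtered Epcam cells (DESeq2 0 and 0, and 0 and 7). The higher gene was the ligand gene Bmp7, at 73.9 and 66.8 against 50.03 and 42.2 CPM (log2 difference 0.62, SE 0.16), a call lost under DESeq2 and under 5% mitochondrial UMIs. Fst, which encodes the activin inhibitor follistatin, stood at 55.8 and 2.501 against 209 and 103 CPM (log2 difference -3.44, SE 0.27). Members were lower in each library, the members of the libraries differed widely, and the call was lost under DESeq2. Msx1, a BMP target gene, stood at 1.201 and 3.15 against 34.4 and 31.1 CPM in filtered Epcam cells (log2 difference -3.41, SE 0.29). The rule required Bmp4 to be at 0, so this list is not independent of it.

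Wnt genes moved both ways, 6 higher and 9 lower of 33 against Fgf20 cells with Tecta (median -0.14) and 6 higher and 8 lower of 41 against filtered Epcam cells (DESeq2 0 and 1, and 3 and 2). The ligand gene Wnt5a stood at 102 and 110 against 64.7 and 53.7 CPM in filtered Epcam cells (log2 difference 0.95, SE 0.14), and the receptor gene Fzd8 at 42.05 and 55.6 against 15.04 and 17.9 CPM (log2 difference 1.65, SE 0.17). Rspo2, which encodes a secreted enhancer of Wnt signalling, stood at 67.3 and 71.7 against 18.9 and 28.4 CPM (log2 difference 1.58, SE 0.17). Member values were higher for all 3 genes in both libraries. Relative to Fgf20 cells with Tecta they were higher by 0.93, 1.12 and 1.91, calls lost under DESeq2, and Rspo2 also lost its call under 5% mitochondrial UMIs. Lgr5, a receptor gene for R-spondins and a mark of prosensory progenitors, ran the other way, at 6.97 and 6.82 against 45.8 and 64.7 CPM in Fgf20 cells with Tecta (log2 difference -3.17, SE 0.23).

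Of 12 hedgehog genes tested against filtered Epcam cells 1 was higher and 2 were lower (DESeq2 0 and 1). Of 9 tested against Fgf20 cells with Tecta 1 was higher and 2 were lower (DESeq2 0 and 0). The receptor gene Ptch1, itself a target of the pathway, stood at 43.2 and 34.3 against 85.6 and 62.1 CPM (log2 difference -0.91, SE 0.16), a call lost under DESeq2 and under 5% mitochondrial UMIs. Of 15 retinoic acid genes 1 was higher and 5 were lower (DESeq2 1 and 2). Cyp26b1, which encodes an enzyme that degrades retinoic acid, stood at 20.9 and 18.6 against 74.6 and 60.5 CPM (log2 difference -1.74, SE 0.19). Crabp1, which encodes a binding protein for retinoic acid, was the higher gene, at 29.3 and 32.7 against 4.24 and 3.54 CPM (log2 difference 3.06, SE 0.31), and it stood at 123 and 18.9 CPM in filtered Epcam cells and 150 and 92.2 in neurons. Aldh1a3, which encodes an enzyme that makes retinoic acid, stood at 51.6 and 59.8 against 81.4 and 150 CPM (log2 difference -1.20, SE 0.13). With cells thinned to 10000 UMIs, and both classes chosen again on the thinned counts, its difference was 1.11 (adjusted p = 0.0038), the opposite direction.

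**Figure D3:**
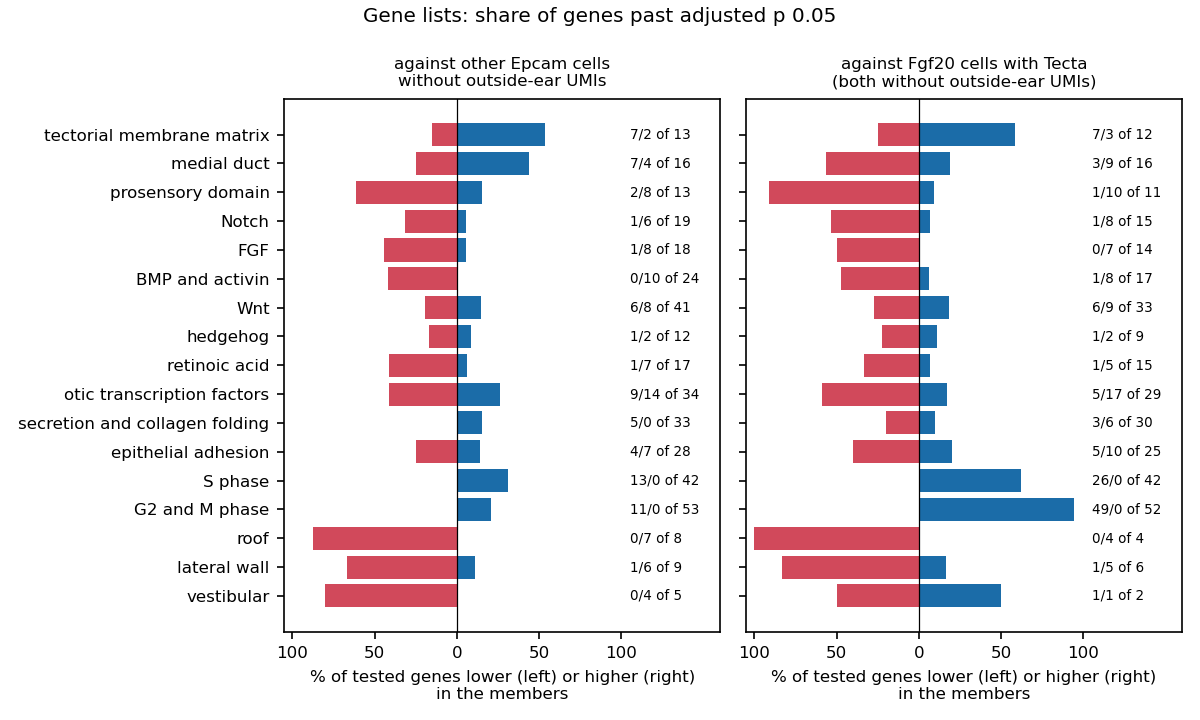
For each gene list on the vertical axis, the percentage of tested genes lower (red bars, to the left) and higher (blue bars, to the right) in members at an adjusted p under 0.05, against filtered Epcam cells and against Fgf20 cells with Tecta; the text at the right of each bar gives higher/lower of tested. No S phase or G2 and M phase gene was lower in either comparison, and most were higher against Fgf20 cells with Tecta but not against filtered Epcam cells; most prosensory genes were lower in both.

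Prosensory genes were lower in members. Of 11 tested against Fgf20 cells with Tecta 10 were lower and 1 higher (median -1.90), and of 13 against filtered Epcam cells 8 were lower and 2 higher (DESeq2 1 and 8, and 2 and 4). Members lack Fgf20 by the rule, so these counts are not independent of the choice. Sox2, the gene of the factor that specifies the prosensory domain, stood at 112 and 97.5 against 180 and 202 CPM in filtered Epcam cells (log2 difference -0.84, SE 0.12) and at 103 and 103 against 381 and 383 CPM in Fgf20 cells with Tecta (log2 difference -1.90, SE 0.09, adjusted p = 6.4e-20). At 10000 UMIs a Sox2 UMI was present in 33.3% and 45.1% of members (57.1% and 60.9% before thinning), 95.1% and 87.2% of Fgf20 cells with Tecta and 6.31% and 15.9% of neurons. The transcript of the reporter, Egfp, was present in 69.7% and 66.7% of members and 22.5% and 17.4% of neurons at that depth.

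Isl1, a LIM homeobox gene, stood at 142 and 94.4 against 700 and 623 CPM in Fgf20 cells with Tecta (log2 difference -2.60, SE 0.09), and Gata3, a factor gene of the sensory epithelium, at 342 and 250 against 781 and 704 CPM (log2 difference -1.39, SE 0.08). Both member values were lower for each gene. Against filtered Epcam cells Isl1 differed by -1.10, a call lost without the library term and under 5% mitochondrial UMIs, where it was -0.32. Gata3 did not pass there (log2 difference -0.49, SE 0.17, adjusted p = 0.11), and passed as lower under 7 of the alternatives. Prdm16, a chromatin regulator gene on the prosensory list, was the gene that was higher than in Fgf20 cells with Tecta, at 79.5 and 80.7 against 15.3 and 22.5 CPM (log2 difference 1.96, SE 0.18). It was also higher than in filtered Epcam cells, by 2.27.

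The list of medial duct genes, assembled with results of these data known, split by comparator: 7 of 16 were higher and 4 lower against filtered Epcam cells, and 3 were higher and 9 of 16 lower against Fgf20 cells with Tecta (DESeq2 6 and 3, and 3 and 7). The 3 higher were Calb1, Crabp1 and Dcn. Calb1, a calcium-binding protein gene, stood at 73.9 and 28.6 against 5.09 and 1.61 CPM (log2 difference 3.96, SE 0.32) and at 153 and 82.5 CPM in neurons. Among the lower, the neurotrophin gene Ntf3 stood at 155 and 141 against 380 and 372 CPM (log2 difference -1.38, SE 0.09) and the nuclear receptor gene Rorb at 58.6 and 42.98 against 193 and 136 CPM (log2 difference -1.69, SE 0.12).

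Transcription factor genes of the ear split too, 5 higher and 17 lower of 29 against Fgf20 cells with Tecta, and 9 higher and 14 lower of 34 against filtered Epcam cells (DESeq2 3 and 10, and 7 and 12). The Iroquois gene Irx3 stood at 431 and 432 against 192 and 215 CPM in Fgf20 cells with Tecta (log2 difference 1.05, SE 0.08). It was also higher than in filtered Epcam cells, by 1.59. Emx2, a homeobox gene, stood at 22.3 and 6.59 against 76.3 and 82.4 CPM (log2 difference -3.11, SE 0.24), lower in members of both libraries. Hmga2, a chromatin protein gene of early progenitors, stood at 321 and 179 against 1065 and 681 CPM (log2 difference -1.86, SE 0.07), higher in replicate 1 than in replicate 2 in both classes.

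Of genes graded between apex and base of the duct, 2 of 5 were lower and none higher than in filtered Epcam cells. Against Fgf20 cells with Tecta 3 of 3 were lower (median -1.90). DESeq2 called 0 and 1 in each. Roof, lateral and vestibular genes were low, and the rule had required Otx2, Bmp4, Hmx2 and Hmx3 to be at 0. Against filtered Epcam cells 7 of 8 roof genes were lower, 6 of 9 lateral genes were lower and 1, Irx3, higher, and 4 of 5 vestibular genes were lower (DESeq2 0 and 4, then 1 and 6, and 0 and 4). Oc90, which encodes the main otoconial protein, stood at 2.403 and 11.2 against 802 and 1453 CPM in filtered Epcam cells (log2 difference -7.06, SE 0.18) and at 2.79 and 11.6 against 327 and 187 CPM in Fgf20 cells with Tecta (log2 difference -4.37, SE 0.18). Gata2, a factor gene of the lateral wall, stood at 1.201 and 6.29 against 36.99 and 102 CPM in filtered Epcam cells (log2 difference -3.99, SE 0.22). Dlx5, a homeobox gene on the lateral and vestibular lists, stood at 6.01 and 0.983 against 107 and 62.1 CPM (log2 difference -5.21, SE 0.30).

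Cell cycle genes were higher in members than in Fgf20 cells with Tecta, by a count that differed widely between fits. Against Fgf20 cells with Tecta 49 of 52 genes of the G2 and M phases were higher and none lower (median 1.05), and so were 26 of 42 genes of the S phase (median 0.61). DESeq2 called 16 of the former and 1 of the latter, and under 5% mitochondrial UMIs edgeR called 24 and 1, with none lower. In the comparison with filtered Epcam cells 11 of 53 and 13 of 42 were higher and none lower, so most did not pass, and DESeq2 called 2 and 2. Top2a, the gene of a topoisomerase of dividing cells, stood at 254 and 257 against 104 and 111 CPM in Fgf20 cells with Tecta (log2 difference 1.22, SE 0.10). Per 10000 UMIs, the median member held 41 and 30.5 UMIs of G2 and M genes, against 18 and 16 in Fgf20 cells with Tecta and 29 and 20 in filtered Epcam cells. Mki67, a mark of cycling cells, had a UMI in 48.5% (30.8 to 66.5) and 32.4% (25.99 to 39.2) of members at that depth, against 24.4% (12.4 to 40.3) and 18.8% (12.2 to 27.1) of Fgf20 cells with Tecta. These intervals overlap in each library, and in neurons the shares were 6.76% and 6.18%.

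Among cell cycle inhibitors, Cdkn1b and Cdkn1c moved in opposite directions. Cdkn1b encodes p27Kip1, which marks the postmitotic prosensory domain, and stood at 58.6 and 42.98 against 142 and 130 CPM in Fgf20 cells with Tecta (log2 difference -1.52, SE 0.13, adjusted p = 1.8e-12). Cdkn1c, which encodes the related p57Kip2, stood at 393 and 478 against 137 and 143 CPM (log2 difference 1.65, SE 0.09, adjusted p = 1.3e-18). Of 10 inhibitor genes 1 was higher and 3 were lower (DESeq2 1 and 2). Cdkn1b differed from filtered Epcam cells by -0.39 and Cdkn1c by 0.12, and neither passed.

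**Figure D4:**
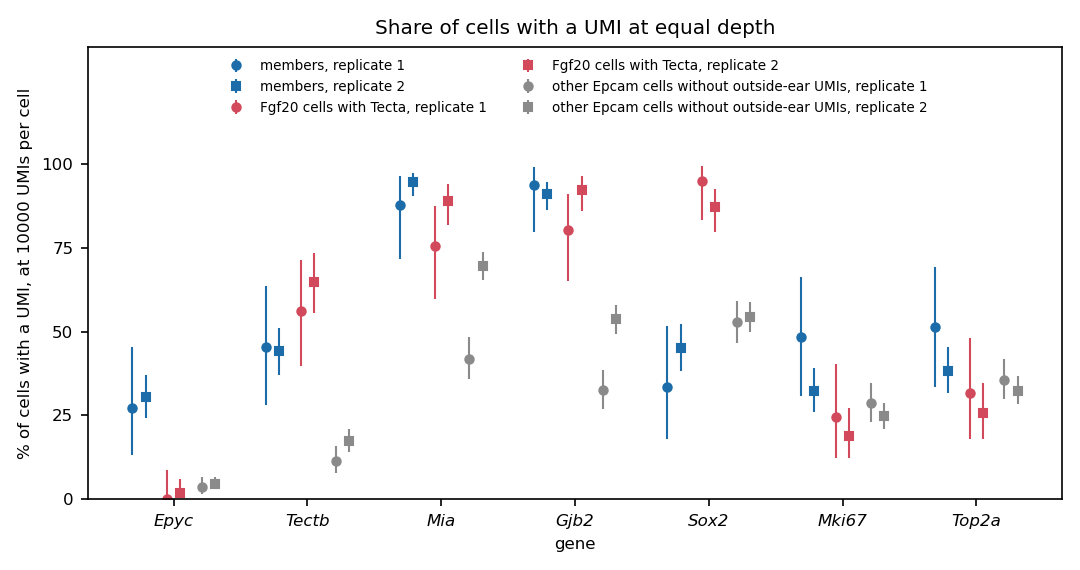
Percentage of E14.5 cells with a UMI of each gene after every cell was thinned to 10000 UMIs, for members, Fgf20 cells with Tecta and filtered Epcam cells, in replicate 1 (circles) and replicate 2 (squares), with exact 95% intervals. Epyc was present in 27.3% and 30.4% of members, and Sox2 in a smaller share of members than of Fgf20 cells with Tecta.

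Gap junction and ion transport genes belong to the later physiology of Kölliker's organ, and the list held 2 higher and 1 lower of 11 against filtered Epcam cells and 2 higher and 1 lower of 7 against Fgf20 cells with Tecta (DESeq2 2 and 1, and 0 and 0). Gjb2, which encodes connexin 26, stood at 363 and 351 against 110 and 217 CPM in filtered Epcam cells (log2 difference 1.22, SE 0.19, adjusted p = 0.0019), a call lost without the library term. Its level was 378 and 370 against 309 and 395 CPM in Fgf20 cells with Tecta (log2 difference 0.03, SE 0.08), values that overlap. At 10000 UMIs it was present in 93.9% and 91.2% of members and 0.4505% and 0.588% of neurons. Gjb6, which encodes its partner connexin 30, stood at 8.41 and 13.96 CPM in members and did not pass against filtered Epcam cells. Of 12 purinergic and calcium genes tested there 1 was higher and 3 were lower (DESeq2 1 and 0), and the ATP receptor genes P2rx7 and P2ry4 had no UMI in members. The higher gene was the calcium pump gene Atp2b1, at 524 and 527 against 216 and 260 CPM (log2 difference 1.20, SE 0.10). Among the lower, the chloride channel gene Ano1 stood at 1.201 and 2.56 against 14.4 and 11.7 CPM.

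Adhesion genes split as well, 5 higher and 10 lower of 25 against Fgf20 cells with Tecta (DESeq2 1 and 4). Itga8, which encodes integrin alpha 8, stood at 69.7 and 83.5 against 6.21 and 16.6 CPM in filtered Epcam cells (log2 difference 2.77, SE 0.23) and was higher by 1.11 than in Fgf20 cells with Tecta, a call lost at equal depth. The keratin gene Krt8 stood at 66.96 and 53.4 against 141 and 142 CPM in Fgf20 cells with Tecta (log2 difference -1.33, SE 0.12), lower in members of both libraries.

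Genes outside these lists were also among the largest differences from Fgf20 cells with Tecta. Upp1, a uridine phosphorylase gene, stood at 68.4 and 93.00 against 5.09 and 0.966 CPM (log2 difference 5.30, SE 0.31, adjusted p = 2.3e-17). Higher, too, were the forkhead gene Foxq1 (by 3.88), Tmem132c, which encodes a membrane protein (by 3.66), Gsn, which encodes the actin-severing protein gelsolin (by 3.28), and Clic6, a chloride channel family gene (by 3.07). Sparcl1 and Smoc2, which encode secreted matrix proteins, were higher by 2.57 and 2.29. Relative to filtered Epcam cells Upp1, Foxq1, Tmem132c, Gsn and Clic6 were higher by 3.83, 2.62, 2.36, 2.94 and 2.22, and the call for Clic6 was lost without the library term. The gene 1500015O10Rik, named Ecrg4 in RefSeq, was not ranked, since the rule for named genes leaves out numbered gene models, and was chosen after its values were seen. It stood at 944 and 1032 CPM in members and 9.84 and 35.5 in the other Epcam cells, and at 1096 and 983 against 5.94 and 17.1 CPM in the comparison with Fgf20 cells with Tecta (log2 difference 6.19, SE 0.13), a larger difference than that of Upp1. Among the largest decreases after Oc90, Agr3, a disulfide isomerase family gene, stood at 1.395 and 5.46 against 55.97 and 88.5 CPM (log2 difference -4.12, SE 0.24). S100a1, a calcium-binding protein gene, stood at 36.3 and 27.5 against 284 and 274 CPM (log2 difference -3.25, SE 0.12).

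Markers of other cell types were checked in the members. The endothelial genes Cdh5, Kdr, Tie1, Tek and Emcn and the melanocyte genes Dct, Tyr, Tyrp1 and Mlana had no UMI. Other genes of these lists did. A UMI of the endothelial list was present in 12 of 42 and 65 of 220 members, with at most 4 and 6 in a cell. The melanocyte list had UMIs in 6 and 32 members, with at most 3 and 26 in a cell. The macrophage list summed to 2.403 and 14.7 CPM and the erythroid list to 10.8 and 17.1. The neuron list summed to 565 and 287 CPM in members and 1440 and 603 in filtered Epcam cells, and after the filter to 333 and 98.9 against 36.5 and 33.8 in Fgf20 cells with Tecta, where 6 of 6 neuron genes were higher (DESeq2 3 and 0). Of the UMIs of the neuronal gene Stmn2 in members, 144 of 149 in replicate 1 and 388 of 412 in replicate 2 lay in 3 and 10 cells. Of these cells 2 and 4 were in the comparison with Fgf20 cells with Tecta. With them left out, and Stmn2 not tested, only 1 neuron gene was left to test there, and it did not pass. Most of the 6 genes thus passed the low-count filter only with those cells. At 10000 UMIs 1 was left and did not pass, and without the highest doublet scores 1 of 2 passed. Without members of 5 or more Stmn2 UMIs, the neuronal tubulin gene Tubb3 no longer passed against Fgf20 cells with Tecta (log2 difference 0.43, adjusted p = 0.247, against 1.19 with them), and its call was also lost under DESeq2, at equal depth and without the highest doublet scores. The hair cell list held 1 higher and 4 lower of 11 against filtered Epcam cells and 2 higher and 3 lower of 5 against Fgf20 cells with Tecta. DESeq2 called 0 and 0, and 1 and 1. A single member of replicate 2 held 275 UMIs of hair cell genes, where the median member held 1. The most macrophage and pituitary UMIs in a single member of that library were 47 and 52, where the median was 0. In the order filtered Epcam cells and Fgf20 cells with Tecta, the glia list held 1 higher and 3 lower of 8 and 0 higher and 1 lower of 6, and the cartilage list 0 higher and 0 lower of 6 and 2 higher and 2 lower of 5. No macrophage, erythroid or pituitary gene tested passed in either of these comparisons (edgeR, and none had an unadjusted p under 0.05). Few were left to test: 1, 3 and 2 against filtered Epcam cells, and 1, 1 and 1 against Fgf20 cells with Tecta. The comparators, and in the latter comparison the members, had been chosen to lack Tyrobp, Pitx1 and Lhx3 UMIs. The macrophage and pituitary results are thus not independent of that filter. Of the others, 1 of 2 endothelial genes was lower than in filtered Epcam cells. Of 7 olfactory genes tested there 4 were lower and 1 higher (DESeq2 1 and 2). Against Fgf20 cells with Tecta 3 of 4 olfactory genes were lower and 1 higher (DESeq2 1 and 1). A UMI of the olfactory list was present in 42 of 42 and 218 of 220 members, with medians of 26.5 and 28 per member. Early response genes that dissociation can induce were lower, 12 of 17 against filtered Epcam cells and 7 of 15, with 3 higher, against Fgf20 cells with Tecta (DESeq2 0 and 9, and 1 and 2). Fos stood at 128 and 203 against 298 and 509 CPM in the latter (log2 difference -1.31, SE 0.09). The part of this response in the other results was not tested.

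Members with and without an Epyc UMI differed in the levels of several genes. This split was made after values were seen, and the cells with Epyc were the deeper, with medians of 16309.5 and 19386 UMIs in the 12 and 79 cells with Epyc and 13801.5 and 14977 in the 30 and 141 without, so it is a description with no test. Tectb stood at 65.98 and 43.9 CPM in cells with Epyc of replicates 1 and 2 and at 372 and 340 in cells without. Sox2 stood at 32.99 and 39.6 against 157 and 146 CPM, and Isl1 at 26.4 and 23.2 against 238 and 160. Cells without Epyc thus held the higher levels of these genes in each library. In the other direction, Mia stood at 2487 and 1865 CPM in cells with Epyc and 880 and 1140 in cells without, and Otoa at 82.5 and 36.1 against 9.45 and 10.1. Tecta, which the rule used, stood at 511 and 477 against 588 and 493 CPM. Across the 42 and 220 members, Pearson's r between cells was -0.37 and -0.45 for Tectb and Epyc, 0.45 and 0.38 for Epyc and Mia, and 0.57 and 0.41 for Tecta and Tectb. These r are descriptions: the cells of a library share its preparation, and they differ in depth.

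**Figure D5:**
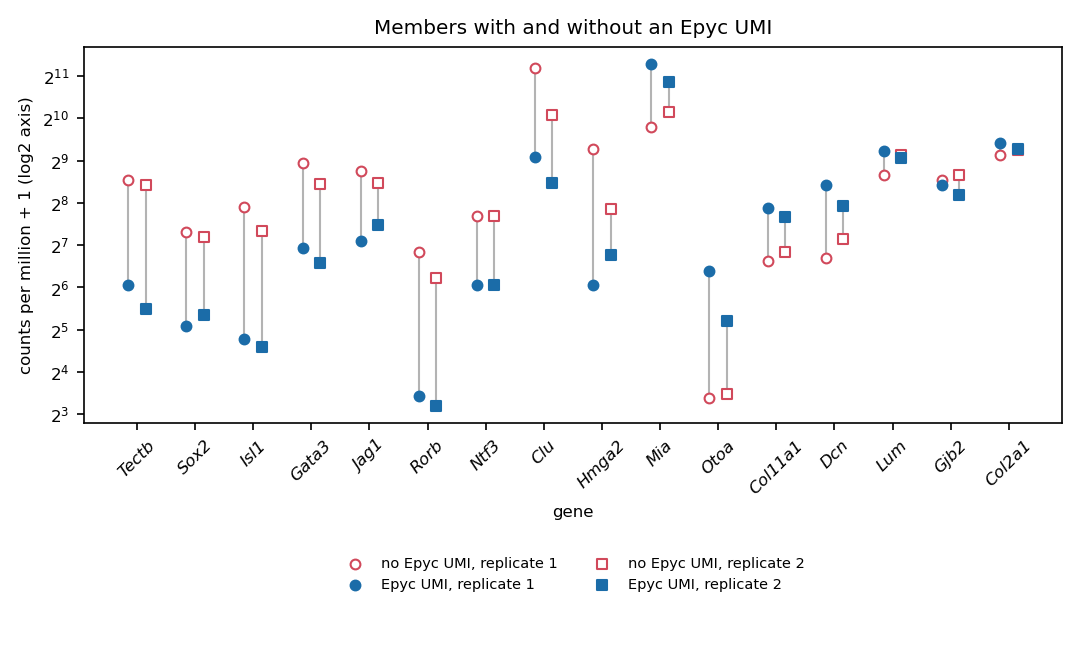
Levels (CPM + 1, on a log2 axis) of the genes on the horizontal axis in members with (filled) and without (open) an Epyc UMI, in replicate 1 (circles) and replicate 2 (squares), joined by lines. Tectb, Sox2, Isl1 and Gata3 were lower and Mia, Otoa and Dcn higher in cells with Epyc in both libraries.

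At the edge of the rule, 11 and 14 members had exactly 2 Tecta UMIs, and 6 and 22 Epcam cells met the rule but for a single Tecta UMI. Mia stood at 1062 and 1292 CPM in the former and 703 and 669 in the latter, and Epyc at 166 and 303 against 122 and 18.8. Crabp1 stood at 7.92 and 26.6 CPM in members with 2 Tecta UMIs and at 1889 and 1862 in the cells with 1.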

How the data were processed

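The authors deposited UMI counts per gene and cell barcode for 4 libraries, made with Cell Ranger 3.0.0 and mm10 per the submitters' processing notes. Library preparation was 10x Genomics 3' capture of GFP-sorted cells, per the labels' protocols. Barcodes with under 1000 genes or at least 10% mitochondrial UMIs were left out, and 648, 684, 1569 and 3049 cells were kept of 694, 737, 1705 and 3298. At most 1 barcode was shared between libraries. Scrublet in scanpy 1.11.5 called 4 and 2 cells at E14.5, too few to have worked; both calls of replicate 2 were members, as were 1 and 9 cells in the top 5% of scores. No doublets were removed, and an alternative left out the top 5% of scores.

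Counts were summed per library and class and tested with edgeR 4.0.16 (TMM, low-count filter, quasi-likelihood F test, library as a block, 4 sums with 1 residual degree of freedom and a spread shared across genes). P-values were adjusted over all genes tested. The block pairs members and comparators of the same library, and the correlation of their deviations was 0.115 with other Epcam cells and 0.031 with Fgf20 cells. The 7 rule genes and Epyc were not tested, nor were Pitx1, Lhx3, Gng13, Neurod6 and Tyrobp where they defined the filter. The script was tested on simulated data. DESeq2 1.42.0 and the other alternatives are given in the closing section. Of 28002 gene IDs, 27645 were in GENCODE vM21.

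Genes were named by rule: per comparison the 12 largest increases and 12 largest decreases (adjusted p under 0.05, average log2 CPM of at least 5, same direction in both libraries), up to 5 genes per list by smallest p, and a set of fixed genes. A gene named in 1 comparison is also given in others. The members, the 33 lists and the tests were chosen with earlier results of these data known. Neurons are cells with at least 5 Stmn2 UMIs and no Epcam UMI. One gene is not reported here.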

Additional observations from a re-analysis of the deposited data

How the results depend on the processing

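Against all other Epcam cells, the counts of higher and lower genes (1564 and 2659) were 644 and 936 under DESeq2, 849 and 1140 with only other cells that had Egfp, 733 and 1112 with only those that had Oc90, 432 and 826 with those without outside-ear UMIs, and 830 and 1558 with those that had Fgf20, Bmp4, Otx2, Hmx2 or Hmx3. Against filtered Epcam cells the counts (432 and 826) were 187 and 246 under DESeq2, 180 and 270 with no replicate block, 655 and 1241 without the top 5% of doublet scores, 854 and 1349 without members of 5 or more Stmn2 UMIs, 280 and 500 with Tecta at least 1, 684 and 1135 with Tecta at least 4, and 622 and 1328 without the low-count filter. Against all Fgf20 cells (649 and 1124) they were 183 and 263 under DESeq2, 1103 and 1689 without members of 5 or more Stmn2 UMIs, 363 and 458 at 10000 UMIs, 462 and 728 with Tecta at least 1, and 601 and 723 with comparators without outside-ear UMIs. Against Fgf20 cells with Tecta (839 and 885) they were 130 and 149 under DESeq2, 237 and 270 under 5% mitochondrial UMIs, 406 and 378 at 10000 UMIs, and 518 and 610 with no replicate block. The causes were not tested, other than that thinning and the mitochondrial limit also left fewer cells and genes. For the fits at 10000 UMIs the members and comparators were chosen again on the thinned counts, so these classes held partly different cells. The percentages of cells with a UMI at that depth kept the original classes.

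The share of members moved to 2.16% of E12.5 replicate 1 with Tecta at least 1, to 0.146% of E12.5 replicate 2, 1.72% of E14.5 replicate 1 and 6.199% of E14.5 replicate 2 with Tecta at least 4, and to 1.85% of E14.5 replicate 1 under 5% mitochondrial UMIs. Leaving out a library left no residual degrees of freedom, so each library's log2 value was taken with no test. Against Fgf20 cells with Tecta the values of 64 of 122 genes without E14.5 replicate 2, and of 7 without replicate 1, moved by more than the SD between libraries, and against filtered Epcam cells those of 21 and 3 of 88. DESeq2 lost the calls of 42 of the 122 and 18 of the 88. In the comparison with Fgf20 cells with Tecta, Hes1 was -0.24 without E14.5 replicate 2 and 0.79 without replicate 1, against 0.45 in the fit, and Aldh1a3 was 1.11 with thinned cells, against -1.20. Both causes were not tested. The alternatives for the age comparison were not run, since it had 6 and 6 members at E12.5.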

Other observations

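Some genes differed between the members of the 2 E14.5 libraries in the same direction as between the libraries of Fgf20 cells with Tecta. These genes were chosen after their values were seen. Among members, Hmga2 stood at 416 and 175 CPM in replicates 1 and 2, Clu, which encodes the secreted chaperone clusterin, at 1673 and 745, the nuclear receptor gene Nr2f2 at 154 and 34.99 and Fst at 57.7 and 2.16. In Fgf20 cells with Tecta they stood at 1065 and 681, 3878 and 2274, 291 and 111 and 209 and 103 CPM. Each was higher in replicate 1 in both classes. With 1 library on each side there was no test of this difference.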
